A study of Torulaspora delbrueckii with 17 samples.

Results

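Binding of the origin protein Orc1 was compared between 2 mutant alleles of its own gene in the budding yeast Torulaspora delbrueckii. The members were the Orc1 peak lists of the orc1bah allele (2 lists) and of the orc1P179A allele (2 lists), together 1730 of the 5717 regions in the 15 lists of the series. A region is 1 deposited peak. Regions of the 4 lists that overlapped by at least 1 bp were joined into a place, and a place was described by the lists that held it. The places numbered 272 on chromosomes 1 to 7 and 527 on chromosome 8, which was kept apart.

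All 4 libraries came from chromatin immunoprecipitation with sequencing of strains that carry a MYC tag on Orc1, through which the chromatin was precipitated, and a V5 tag on Kos3 (KOS3V in the labels). Both orc1bah libraries came from strain LRY3212. The orc1P179A libraries came from strains LRY3215 (replicate 1) and LRY3216 (replicate 2). The series calls the libraries of a pair technical replicates, so the spread between the orc1bah libraries is that of 1 strain, and p-values measure the spread between libraries only. Peaks of all 4 lists were called, per the file names, against 1 input library, which came from the untagged strain JRY10156. The wild-type Orc1 lists used for orientation came from strains LRY3204 and LRY3211, of which the second carries the Kos3 tag. Lists of sir2 and kos3 mutants (strains LRY3206 and LRY3205) were used in the same way. The LRY3204, sir2 and kos3 lists were called against the other input library, from the same untagged strain.

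Orc1 is the largest subunit of the origin recognition complex (ORC), which marks replication origins and loads the replicative helicase on DNA. At its amino end Orc1 carries a BAH (bromo-adjacent homology) domain that binds nucleosomes. In Saccharomyces cerevisiae this domain also recruits the silencing protein Sir1 to the silent mating-type loci, and ORC is needed for silencing there. Kos3 belongs to the Sir1-related family of proteins. The allele orc1bah is named for the domain, and the name orc1P179A denotes a proline-to-alanine change. The labels describe neither allele further. The comparison asks whether the alleles leave Orc1 at the same places. Gene roles given below are those of the S. cerevisiae genes with the same names.

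On chromosomes 1 to 7 both alleles held Orc1 at largely the same places. Of the 272 places, 192 were in all 4 lists, 8 were in both orc1bah lists and in no orc1P179A list (2.94% of the places), and 3 were in both orc1P179A lists and in no orc1bah list (1.1%). A further 18 places were held by both alleles but not by all 4 lists, and 51 were in 1 list alone. Of these 51, 11 and 19 belonged to orc1bah replicates 1 and 2, and 16 and 5 to orc1P179A replicates 1 and 2. A place held by 1 allele in both of its lists was thus rarer than a place held by 1 library alone.

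The lists held 236 and 248 regions on chromosomes 1 to 7 for orc1bah and 230 and 223 for orc1P179A. Group means were 242 ± 8.49 and 226.5 ± 4.95 (SD, n = 2 each). Both orc1P179A lists were shorter than both orc1bah lists. Two-sided exact permutation over the 4 libraries gave p = 0.333, the smallest value that 2 libraries against 2 allow. The order rested on weak regions, because with a −log10 q of at least 10 the difference of means went from −15.5 to 0.50 regions. Length under regions was 191.9 and 209.1 kb for orc1bah and 195.0 and 191.4 kb for orc1P179A, with overlapping groups (exact permutation p = 0.667). The difference in covered length, −7.29 kb, turned to 1.35 kb without orc1bah replicate 2.

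Chromosome 4 carried most of the difference in region number. It held 43 and 42 orc1bah regions against 34 and 32 orc1P179A regions, whereas chromosome 2 held 33 and 34 against 33 and 37. Of the orc1bah regions on chromosome 4, 5 and 1 lay at the ORC1 gene. Density on chromosomes 1 to 7 lay between 2.26 and 3.53 regions per 100 kb in every list.

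**Figure D1:**
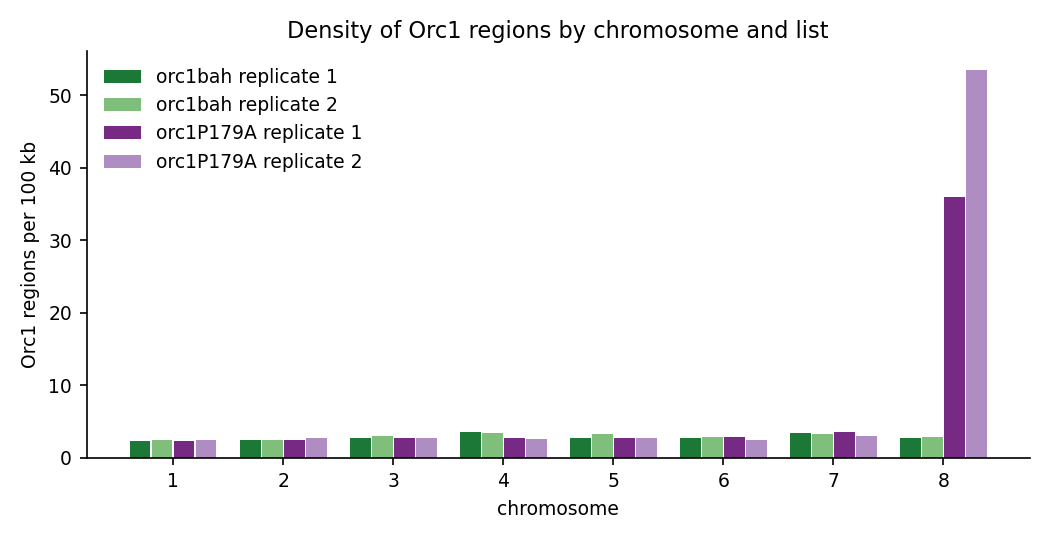
Orc1 regions per 100 kb (vertical axis) on each chromosome (horizontal axis) in the 4 lists, 1 bar per list. Chromosomes 1 to 7 lie between 2.26 and 3.53 in every list, while chromosome 8 reaches 36.0 and 53.5 in the orc1P179A lists against 2.76 and 2.88 in the orc1bah lists.

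Lists of different alleles shared about as many regions as lists of the same allele. The share of a list's regions found in a list of the other allele ranged from 86.3% to 95.5% over 8 ordered pairs (mean 90.3%), and the share found in the other list of the same allele from 88.3% to 95.5% over 4 ordered pairs (mean 92.1%). For single pairs the counting error was about as wide as these ranges: 214 of the 236 regions of orc1bah replicate 1 were in orc1P179A replicate 1, or 90.7% with a Wilson 95% interval from 86.3% to 93.8%. Where alleles shared a place, the largest overlap of an orc1bah with an orc1P179A region had a median of 867 bp. The smallest overlap that joined the alleles was 54 bp, at HMLALPHA2 and HMLALPHA1. Of the places held by 1 allele alone in both of its lists, the one nearest to a region of the other allele lay 64 bp from it, in CIR1, and a place of orc1bah replicate 1 alone on chromosome 4 lay 22 bp from one.

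The 192 places in all 4 lists were spaced along the chromosomes, with a median distance of 44.8 kb between neighbouring summits (quartiles 21.0 and 64.9 kb). The summit lay outside annotated genes at 160 of them, or 83.3%, whereas 20.5% of the bases of chromosomes 1 to 7 lie outside genes. A tRNA gene was within 1 kb of the summit at 41 places, or 21.4%, whereas 4.04% of the bases lie that near to one. Both wild-type lists held 191 of the 192. The one that no wild-type list held lay between CLD1 and a tyrosine tRNA gene on chromosome 6 (positions 627515 to 627919), with folds from 1.60 to 2.39 in the 4 lists.

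Summits agreed closely in position. The median distance between the summits of 2 lists at the same place was 18.5 bp within orc1bah, 20 bp within orc1P179A, and 18.5 to 24.0 bp between alleles. Between 186 and 190 of the 192 places had summits within 200 bp of each other for a pair of lists of different alleles. Distances between alleles thus overlapped those within an allele.

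Fold enrichment, the authors' ratio of precipitate over background at a peak, can be ranked within a list. Ranked over the same 192 places in each list, Spearman's rho was 0.98 within orc1bah, 0.97 within orc1P179A and 0.95 for each of the 4 pairs between alleles, given as a description, since the points share libraries and input. The median difference in rank of a place was 7 within orc1bah, 8 within orc1P179A and 10 to 10.5 between alleles. Ranks thus differed somewhat more between alleles than within them.

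The same places led all 4 lists. First in each was the gap between MSH3, a mismatch repair gene, and CDC39, which encodes the scaffold of the CCR4-NOT complex, on chromosome 1 (positions 1370937 to 1372517). Its folds were 26.7 and 32.4 in the orc1bah lists and 27.8 and 23.9 in the orc1P179A lists. Second in each was a place between TDEL0A08060 and the right end of chromosome 1 (positions 1416448 to 1417982), with folds of 25.01, 29.4, 25.9 and 23.3 in the same order. The place beyond the last gene of chromosome 5, next to TDEL0E05770, was the other chromosome end among the 10 best mean ranks, with folds of 15.9, 21.2, 15.4 and 15.1.

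Interior places made up the rest of these 10. Between CIR1 and SER2, a serine synthesis gene, on chromosome 5 the folds were 22.8 and 24.0 in orc1bah and 18.6 and 18.4 in orc1P179A. Between HOG1, the osmotic-stress kinase, and YCF1, a vacuolar transporter, on chromosome 6 they were 18.9, 23.4, 20.9 and 17.7. The place between RAD27, the flap endonuclease, and ABF1, an origin- and promoter-binding factor, on chromosome 1 had 15.7, 20.8, 16.1 and 14.2. All 4 lists ranked these 3 places among their 13 highest. The remaining 4 lay between an alanine tRNA gene and MRPL3, between ACT1 and SND2, between CYT1 and YNG1, and between TDEL0A06930 and MRPL24.

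Among the shared places, some ranked apart in the alleles. At 45 of the 192 places (23.4%) both orc1P179A lists ranked the place higher than both orc1bah lists, and at 51 (26.6%) both orc1bah lists ranked it higher. Most of these gaps were narrow, with medians of 8 and 6 ranks, and 20 and 17 of them reached 10 ranks. The directions were nearly balanced, and ranking by −log10 q instead gave 50 and 47.

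The widest gap in favour of orc1P179A was between RAD30, which encodes a translesion DNA polymerase, and a serine tRNA gene on chromosome 1 (positions 688687 to 689991). It ranked 47 and 51 in the orc1bah lists and 8 and 9 in the orc1P179A lists. Within SSP1, a sporulation gene on chromosome 7, the ranks were 105 and 85 against 32 and 60. Between HIM1 and a phenylalanine tRNA gene on chromosome 5 they were 87 and 92 against 55 and 63. The other 7 of the 10 widest gaps spanned 15 to 20 ranks and included the gap before SET2, which encodes a histone H3 methyltransferase, where the ranks were 108 and 106 against 90 and 86.

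In favour of orc1bah, the widest gap lay between ALG6, an N-glycosylation gene, and an arginine tRNA gene on chromosome 7 (positions 811825 to 813439). The ranks there were 42 and 37 in orc1bah and 87 and 75 in orc1P179A. Next came the place before RPL26A, a ribosomal protein gene on chromosome 4, with 39 and 41 against 69 and 74. Between GAP1, the general amino acid permease gene, and CDC4, a ubiquitin ligase gene, on chromosome 3 the ranks were 17 and 19 against 45 and 51. Of the 41 places near a tRNA gene, orc1bah ranked 4 higher (9.76%) and orc1P179A 11 (26.8%), against 47 (31.1%) and 34 (22.5%) of the 151 other places. This split of the shared places was looked for after the values were seen and was not tested.

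**Figure D2:**
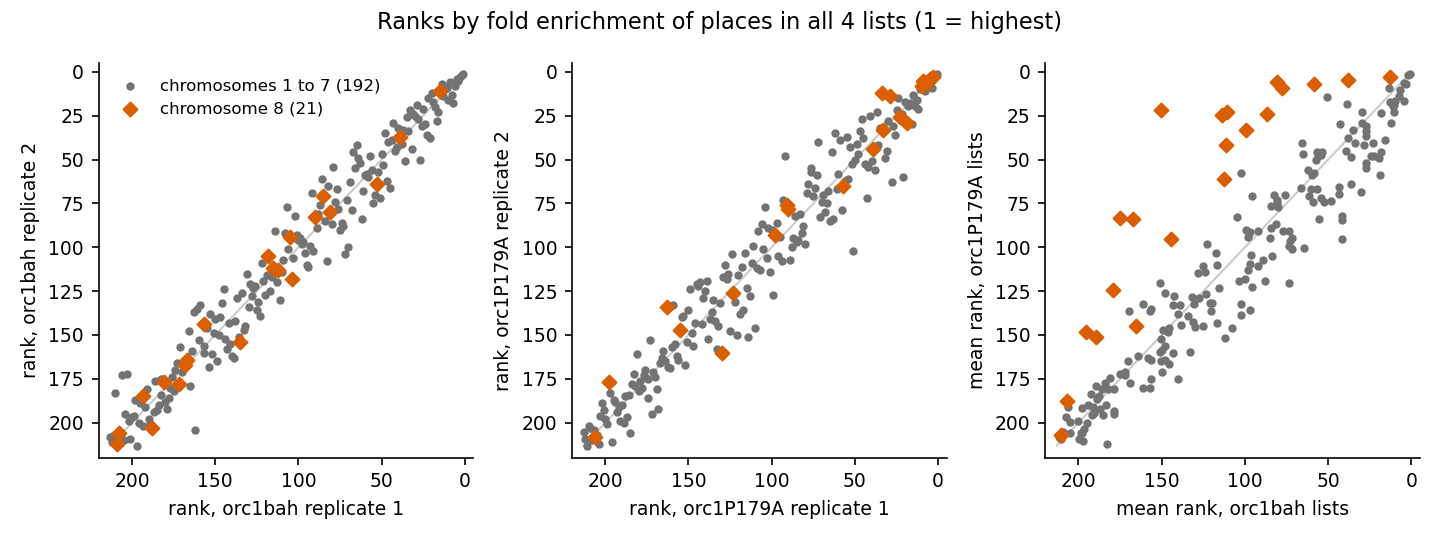
Rank by fold enrichment (1 is the highest) of the 213 places in all 4 lists, for the orc1bah replicates (left), the orc1P179A replicates (middle) and the mean ranks of the alleles (right). Grey points are the 192 places of chromosomes 1 to 7 and orange diamonds the 21 of chromosome 8; the line marks equal ranks. In the right panel all 21 diamonds lie above the line, with higher ranks in orc1P179A.

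Lengths differed in both directions as well. Both orc1P179A lists covered more bases than both orc1bah lists at 38 of the 192 places (19.8%), and fewer at 39 (20.3%). As with the ranks, some such places arise without an allele difference, and the counts were not tested. A gap of at least 200 bp occurred at 2 places for orc1P179A and at 10 for orc1bah. The longest was between SFP1, a regulator of ribosomal protein genes, and DUS3, a tRNA modification gene, on chromosome 5 (positions 215903 to 219038). The orc1bah lists covered 2443 and 2508 bp there and the orc1P179A lists 1250 and 1442 bp, and the folds in the same order were 13.8, 15.04, 13.6 and 13.2. Between PHO13 and MGS1 on chromosome 1 the lengths were 2068 and 1789 bp against 1306 and 985 bp. The ALG6 place was also longer in orc1bah, with 1587 and 1615 bp against 1031 and 1307 bp. In the other direction the SSP1 place led, with 726 and 563 bp in orc1bah against 952 and 1055 bp in orc1P179A. The next was PTH1, a peptidyl-tRNA hydrolase gene, with 1003 and 1021 bp against 1238 and 1324 bp.

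The 8 places of orc1bah alone were weak. Their folds ran from 1.77 to 2.59 in the 2 lists, and at most 24.2% of the regions of the same list on chromosomes 1 to 7 had a lower fold. They lay in MEH1 on chromosome 1, between TDEL0B05180 and MLS1 (a malate synthase gene) and between RGT1 (a regulator of glucose transporter genes) and OTU2 on chromosome 2, between HMLALPHA1 and TDEL0C07020 on chromosome 3, in ORC1 on chromosome 4, in CIR1 on chromosome 5, and, on chromosome 6, between TDEL0F00570 and a tyrosine tRNA gene and in SFH1, which encodes a subunit of a chromatin remodeller. In 4 of the 8 the summit lay outside genes. The places in CIR1 and SFH1 were 64 bp and 279 bp from an orc1P179A region and so belong to neighbourhoods that both alleles share. A wild-type list held 5 of the 8, and both wild-type lists held 1.

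The 3 places of orc1P179A alone were as weak, with folds from 1.72 to 2.24 and at most 13.5% of the regions of the same list below them. All 3 had their summits outside genes and were in both wild-type lists. They lay between an alanine and a tyrosine tRNA gene on chromosome 1 (positions 16520 to 16759), between TIM18 and RNH1 on chromosome 2 (positions 611234 to 611521), and between TDEL0B07680 and TDEL0B07690 at the right end of chromosome 2, 178 bp from an orc1bah region. The count did not hold at a −log10 q of at least 5, which left 0 such places. The orc1bah count fell from 8 to 5 there and to 0 at a threshold of 10. Of the 8 named places of orc1bah alone, only the one in ORC1 reached 5 in both lists. The 5 thus included places that both alleles held without a threshold, such as the one between NCW2 and NMT1. At a threshold of 10, 3 places were in both orc1P179A lists alone. They were not the 3 named above, whose highest −log10 q was 5.33 and 4.99 in the 2 lists. They lay in MOH1, between GLO4 and PCH2, and between FAT1 and FIG1, and all 4 lists held them without a threshold.

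Wild-type regions were held alike by the alleles in most cases. Of 208 regions of chromosomes 1 to 7 in both wild-type lists, 185 overlapped regions of all 4 mutant lists and 11 overlapped none. A further 2 were held by both orc1P179A lists and no orc1bah list, 0 the other way round, and 10 had other patterns.

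The ORC1 gene itself, on chromosome 4 (positions 164983 to 167841), held 1 of the 8 places of orc1bah alone. Replicate 1 of orc1bah held 5 regions within 5 kb of the gene, with folds from 1.94 to 2.31, and replicate 2 held 1, with a fold of 2.59. No orc1P179A list held a region there. The wild-type list of strain LRY3204 and the kos3 list each held 3 regions there, and the wild-type list of strain LRY3211 and both sir2 lists held 0. In the Kos3 precipitates of the same strains, both orc1bah lists held regions at the gene (4 and 3) and both orc1P179A lists held 0. Regions at this mutated and tagged gene thus differed by strain in both precipitates.

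**Figure D3:**
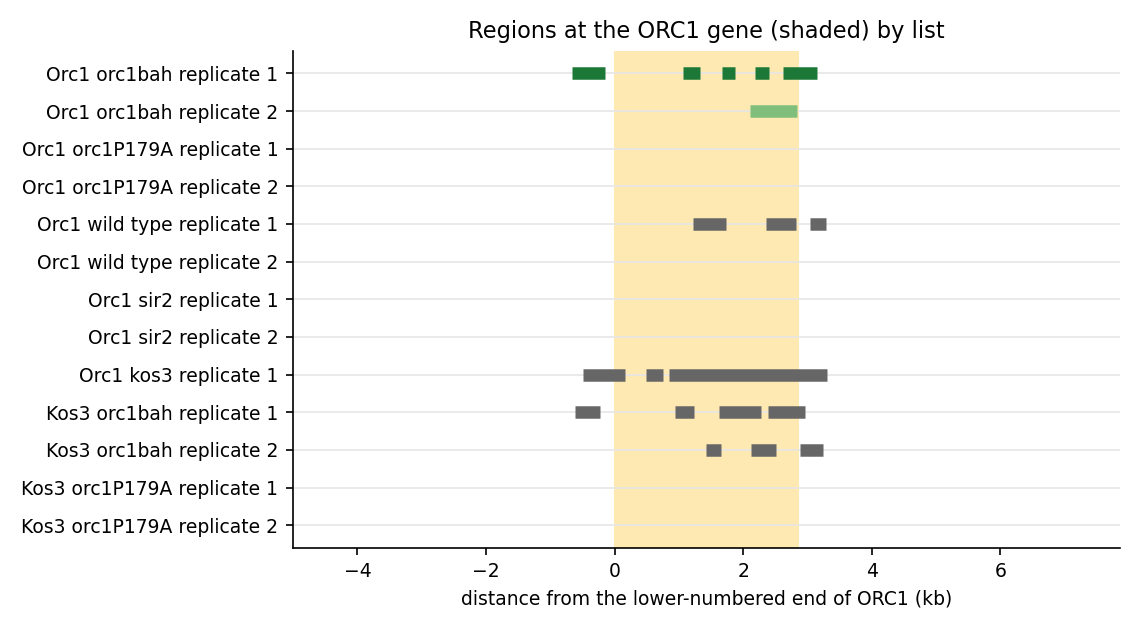
Regions within 5 kb of the ORC1 gene (shaded) in 13 lists, 1 row per list, plotted by distance in kb from the lower-numbered end of the gene. Regions lie in the gene in both orc1bah Orc1 lists and both orc1bah Kos3 lists, and there are none in the orc1P179A lists. All of these orc1bah lists except Orc1 replicate 2 also have a region beside the gene.

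Silent mating-type loci are the classical targets of silencing in budding yeasts. Around HMLALPHA2 and HMLALPHA1, which encode mating-type regulators near the right end of chromosome 3 (positions 1273613 to 1275265), the orc1bah regions within 5 kb covered 1611 and 1834 bp and the orc1P179A regions 2042 and 1522 bp. The groups overlap. In the wild-type lists the same window was covered over 6081 and 11203 bp, so all 4 mutant lists covered less than either wild-type list. Within the window every mutant list held a region left of the genes, with a fold of 2.79 to 3.83, and one right of them, with a fold of 2.29 to 4.44. At the genes themselves, orc1bah replicate 1 and both orc1P179A lists held a region (folds 1.75, 2.26 and 1.71). Farther right, at positions 1277508 to 1278068, the orc1bah lists alone did, with folds of 2.48 and 2.18.

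Of the 19 named replication and silencing genes looked up, each list had a region within 5 kb of 10, though not of the same 10. A strong region near SIR1, a silencing gene on chromosome 5, had folds of 14.1, 14.95, 15.4 and 13.2 in orc1bah replicates 1 and 2 and orc1P179A replicates 1 and 2. At ORC5, which encodes another ORC subunit, the folds were 16.0, 18.9, 14.1 and 13.6. At MCM3, a helicase subunit gene, they were 11.2, 12.7, 10.6 and 12.05, and at MCM7, another helicase subunit gene, 3.17, 3.38, 3.63 and 3.79. These places were thus common to all 4 lists. No list held a region near SIR2, ORC2, ORC3, ORC6, MCM2, MCM4 or MCM6. At SLA2, which flanks the mating-type locus in many yeasts, orc1P179A replicate 1 alone of the 4 lists held a region, with a fold of 2.29. Both wild-type lists held regions near SLA2, with highest folds of 7.50 (LRY3204) and 12.5 (LRY3211). The kos3 list held 1 there, with a fold of 3.82, and both sir2 lists held 0. Near CDC6, a helicase-loading gene, orc1P179A replicate 2 alone of the 4 lists held a region, with a fold of 2.31.

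Chromosome ends are the other usual home of silent chromatin. In the outer 20 kb of chromosomes 1 to 7, regions of the orc1bah lists covered 20.8 and 21.97 kb, summed over 14 windows, and those of the orc1P179A lists 27.4 and 21.6 kb, against 51.7 and 121.5 kb in the wild-type lists. All 4 mutant lists were below both wild-type lists. Counting whole regions by their midpoint, the means were 21.4 ± 1.60 kb and 23.7 ± 4.13 kb (SD, n = 2 each; exact permutation p = 0.667). The excess of orc1P179A came from replicate 1. Without it the difference of 2.26 kb turned to −0.66 kb.

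End by end, both orc1P179A lists covered more than both orc1bah lists at 7 of the 14 ends (50%) and less at 1 (7.14%), the right end of chromosome 3, and the groups overlapped at 6. These gaps were small, from 13 to 165 bp at the 7 ends. Some ends separate in this way without an allele difference, and the count was not tested. At the left end of chromosome 2 the orc1bah lists covered 741 and 896 bp and the orc1P179A lists 1956 and 1007 bp. On the right of chromosome 6 the values were 1376 and 1390 bp against 2455 and 1420 bp. In both cases replicate 1 of orc1P179A stood far above and replicate 2 just above the orc1bah lists. Of the 16 places held by orc1P179A replicate 1 alone, 8 lay within 20 kb of an end, whereas the other 3 lists had no such place there.

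**Figure D4:**
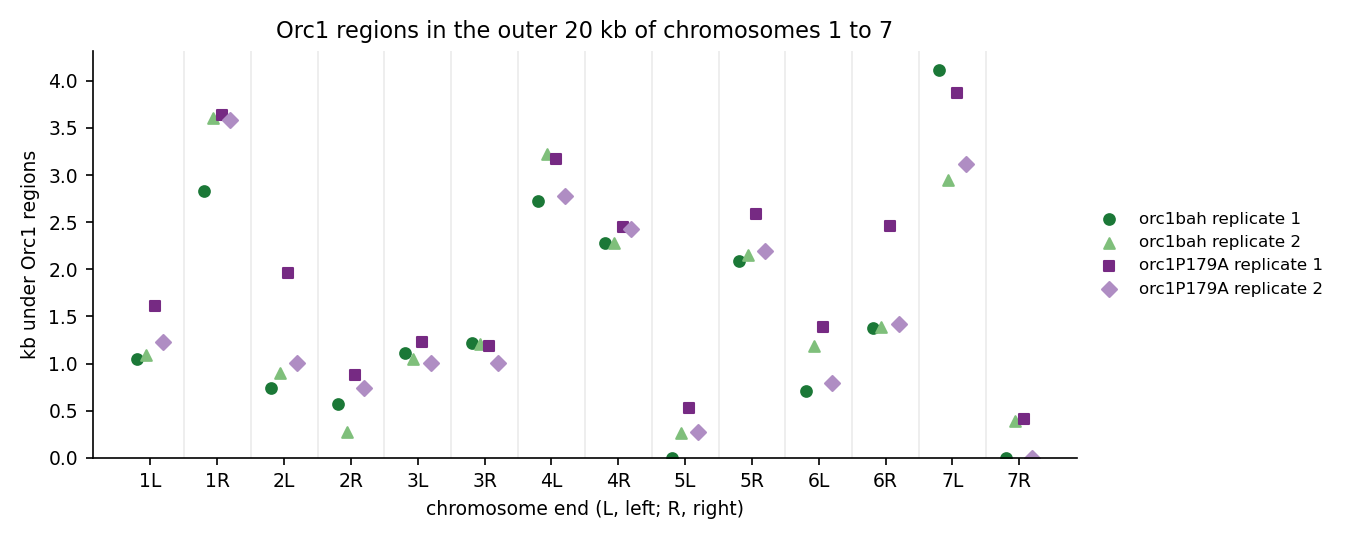
Kilobases under Orc1 regions in the outer 20 kb at each of the 14 ends of chromosomes 1 to 7 (horizontal axis, L left and R right) in the 4 lists. The orc1P179A lists both lie above both orc1bah lists at 7 ends, by 13 to 165 bp.

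Kos3 was precipitated from the same strains and met the shared places at about the same number in both alleles. Of the 192 places, 14 and 16 overlapped a Kos3 region in the orc1bah lists and 15 and 16 in the orc1P179A lists, and 14 did so in all 4. The wild-type Kos3 lists gave 21 and 22.

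Chromosome 8 set the alleles apart. It held 23 and 24 regions in the orc1bah lists and 300 and 446 in the orc1P179A lists, that is 2.76 and 2.88 against 36.0 and 53.5 per 100 kb. The group means were 23.5 ± 0.71 and 373 ± 103.2 regions (SD, n = 2 each; exact permutation p = 0.333, the smallest possible). Regions covered 1.97% and 2.23% of the chromosome in orc1bah and 16.5% and 23.8% in orc1P179A. The raised number was not particular to orc1P179A: the sir2 lists held 403 and 419 regions there, the wild-type lists 34 and 34 and the kos3 list 35. These values, and the folds, ranks and lengths on chromosome 8 given below, are relative to an input of another strain. More Orc1 at each copy of the chromosome and more copies of it in the orc1P179A strains cannot be told apart in these lists, and the copy number of chromosome 8 was not tested. Every orc1bah region of the chromosome was found in both orc1P179A lists. Of the 527 places, 0 were in both orc1bah lists alone (0%) and 141 in both orc1P179A lists alone (26.8%), 21 were in all 4, and 363 were in 1 orc1P179A list, 109 in replicate 1 and 254 in replicate 2. The remaining 2 places were in both orc1P179A lists and 1 orc1bah list.

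The additional orc1P179A places were weak, short and mostly inside genes. At the 141 places in both lists the median fold was 2.14 and 2.18 and the highest 3.20 and 3.05, and the median length 362 and 415 bp. The summit lay outside genes at 33 of them, or 23.4%, close to the 22.4% of bases of chromosome 8 outside genes, and a tRNA gene was within 1 kb at 10 (7.09%), whereas 3.79% of the bases of chromosome 8 lie that near to one. With a −log10 q of at least 5 the number fell from 141 to 42, and with at least 10 to 2. Taking from each list its 23 regions with the highest −log10 q left 0 places of orc1P179A alone and 20 in all 4 lists.

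By mean fold the first of these places was in GIM4, a prefoldin gene, with folds of 3.20 in replicate 1 and 2.34 in replicate 2. Next came a place between a threonine tRNA gene and TDEL0H03270, with 2.46 and 3.05. In CAJ1, a chaperone gene, the folds were 2.57 and 2.87. The other 7 of the first 10 had mean folds between 2.48 and 2.66. They lay beside GDH1 (a glutamate dehydrogenase gene), beside AFG3 (a mitochondrial protease gene), beside an isoleucine tRNA gene, and in BIO2 (biotin synthesis), CLN3 (a G1 cyclin), DCK1 and YAK1 (a protein kinase).

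These places lay all along chromosome 8. Left of the ribosomal DNA (rDNA), each of 15 windows of 50 kb held 10 to 29 summits in replicate 1 and 18 to 42 in replicate 2 of orc1P179A, against 0 to 3 in either orc1bah list. All 141 places in both orc1P179A lists alone lay left of the rDNA, with a median distance of 3.08 kb between neighbouring summits, whereas the 21 places in all 4 lists had a median distance of 46.7 kb. In the 25.3 kb right of the rDNA the lists held 5 and 4 regions in orc1bah and 8 and 11 in orc1P179A. No list held a region in the rDNA or within 5 kb of it.

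Within orc1P179A the libraries agreed less on chromosome 8 than elsewhere. Of the 300 regions of replicate 1, 63.7% were found in replicate 2 (Wilson 95% interval 58.1% to 68.9%), and of the 446 regions of replicate 2, 43.0% were found in replicate 1 (38.5% to 47.7%). On chromosomes 1 to 7 the same shares were 90.0% and 95.5%. A raised number of weak regions was thus a chromosome-wide feature of both orc1P179A lists, and their positions overlapped in part. Regions covered 16.5% of the chromosome in replicate 1 and 23.8% in replicate 2, so some of this overlap follows from density. How much of it does was not tested, and the same holds for the places counted in both orc1P179A lists alone.

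The 21 places of chromosome 8 in all 4 lists resembled those of the other chromosomes by position. Their summits lay outside genes at 16 (76.2%), 4 were within 1 kb of a tRNA gene, and both wild-type lists held all 21. They differed between the alleles in rank and in length. Ranked among the 213 places of all 8 chromosomes in all 4 lists, each of the 21 ranked higher in both orc1P179A lists than in both orc1bah lists. Over all 213 places 47 did so (22.1%) and 79 ranked higher in orc1bah (37.1%), of which 26 and 79 lay among the 192 places of chromosomes 1 to 7. Ranked without chromosome 8, the same 192 places gave 45 and 51. The shift follows from the joint ranking, because chromosome 8 places that rank higher in orc1P179A move the others down there. The median rank of the 21 was 118 in each orc1bah list and 39 and 44 in the orc1P179A lists.

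In length the pattern was the same. All 21 covered more bases in both orc1P179A lists, against 59 of all 213 places (27.7%), and none of them covered more in orc1bah, against 39 of 213 (18.3%). On chromosome 8 the median length was 873 and 951 bp for the orc1bah lists and 1773 and 1854 bp for the orc1P179A lists. On chromosomes 1 to 7 the shared places had medians of 915 and 966 bp for orc1bah and 919.5 and 967.5 bp for orc1P179A, so there the alleles did not separate.

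A ratio within each list puts the chromosomes on 1 scale. The median fold of the 21 shared places of chromosome 8, divided by that of the 192 of chromosomes 1 to 7, was 0.863 and 0.856 in the orc1bah lists and 1.62 and 1.46 in the orc1P179A lists. The means were 0.860 ± 0.00474 and 1.54 ± 0.109 (SD, n = 2 each; exact permutation p = 0.333, the smallest possible). Wild-type lists lay between the alleles, at 0.986 and 0.999, as did the kos3 list at 1.03. The sir2 lists were at 1.71 and 1.59, near or above the orc1P179A values. The ratio of orc1bah was thus below 1 and that of orc1P179A above 1 in each library.

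**Figure D5:**
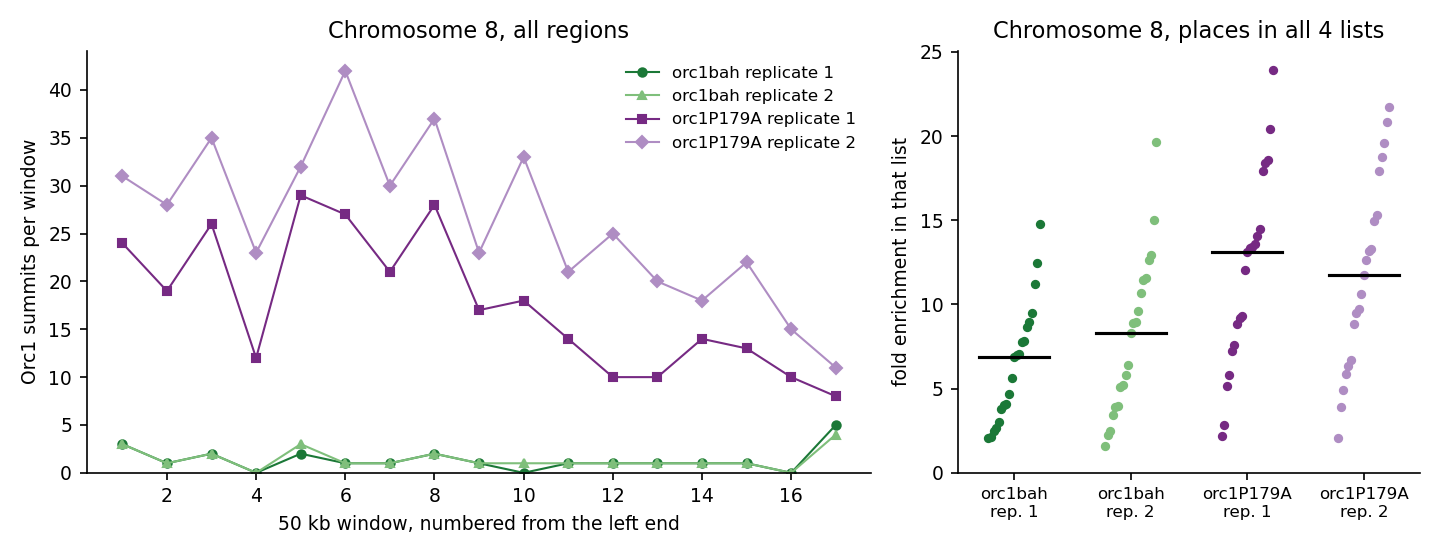
Left, Orc1 summits per 50 kb window of chromosome 8, numbered from the left end (the last window is shorter), in the 4 lists. Right, fold enrichment in its own list of each of the 21 places in all 4 lists, with the median as a black line (6.87 and 8.30 in orc1bah, 13.1 and 11.7 in orc1P179A).

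Single places show how this looked. The highest of the chromosome lay between SPO22, a meiotic gene, and AIM9 (positions 298320 to 302266), with folds of 14.8 and 19.6 in orc1bah, where it ranked 15 and 11, and 23.9 and 21.7 in orc1P179A, where it ranked 3 in both. At ORC4, which encodes an ORC subunit, the folds were 7.83 and 8.30 against 13.4 and 15.3, and the ranks 104 and 118 against 34 and 12. The widest gap in rank was right of the rDNA, between TDEL0H04520 and TDEL0H04530, with folds of 4.69 and 6.41 against 13.6 and 14.96 and ranks of 157 and 144 against 29 and 14. At MEI4, a meiotic recombination gene, the folds were 3.82 and 3.94 against 9.22 and 9.70. The narrowest was inside TDEL0H04530, near the right end, with folds of 2.08 and 1.59 against 2.18 and 2.09. Lengths moved too: the place between RAD7, a DNA repair gene, and TDEL0H01440 covered 1053 and 1506 bp for orc1bah against 3941 and 3962 bp for orc1P179A.

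Lists outside this pair of alleles held the additional places unevenly. Of the 141 places in both orc1P179A lists alone, 109 (77.3%) were in at least 1 sir2 Orc1 list and 63 (44.7%) in both, whereas 4 were in a wild-type list and 3 in the kos3 list. The latter lists were far shorter on chromosome 8, with 34 and 34 regions in wild type and 35 in kos3 against 403 and 419 in sir2. From the other side, 24.6% of the 403 and of the 419 chromosome 8 regions of the sir2 lists overlapped one of the 141. Kos3 precipitates of the orc1P179A strains held 131 of them (92.9%) in at least 1 list and 102 (72.3%) in both, and those of the orc1bah strain held 1. In turn 21.1% and 20.3% of the 688 and 679 Kos3 regions of that chromosome in orc1P179A overlapped one of the 141. The Kos3 lists of orc1bah held 5 regions each there. Over all 504 places of chromosome 8 in 1 or both orc1P179A lists alone, 65.9% were in a sir2 Orc1 list. Of the same 504, 87.5% were in a Kos3 list of the orc1P179A strains. Those Kos3 regions covered 316.4 and 328.9 kb of the 834.0 kb. With regions this dense some overlap follows from density, and its size was not tested.

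Chromosome 8 also moved with the Kos3 lists at the shared places. Of the 21, 4 and 3 overlapped a Kos3 region in the orc1bah lists and 18 and 19 in the orc1P179A lists, against 4 and 4 in wild type. The raised number of regions therefore appeared with both antibodies in the orc1P179A strains and with neither in the orc1bah strain. All of these mutant lists were called against the same input, from another strain, and no read counts were used here.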

How the data were processed

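Reads were aligned with Bowtie2 2.3.4.1 and peaks called with MACS2 2.2.7.1, per the submitters' processing notes; the genome build is not given in the sources used here. Each deposited list holds the peaks of 1 library with the authors' values: a fold (a ratio of precipitate over background), −log10 p-values and −log10 q-values, and a score equal to 10 times the −log10 q to within 1. The lowest −log10 q was 1.31. Peak names in the deposited lists hold the word subsample, name a different input than the file names do, and in the second orc1P179A list another replicate number than the label; groups follow the labels. Read depth is unknown. No input peak list was analysed here.

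Regions of the 4 lists were joined into places in Python 3.11 with pandas, after a test on simulated lists. Chromosome ends are the last gene or peak. Genes came from the RefSeq table of assembly ASM24337v1 (5174 genes, no strand), whose chromosomes were matched by order: summits of a −log10 q from 10 upward fell outside genes in 67.4% to 90.4% with the own chromosome and in at most 37.3% with another. Folds were used and ranked within lists only. Group means of 2 against 2 libraries were compared by an exact two-sided permutation test (SciPy), which cannot go below p = 0.333, and places were counted with no test. Wilson 95% intervals cover counting error only. Named places were all of 1 allele alone (on chromosome 8 the 10 with the highest mean fold), the 10 of best mean rank, those of the 10 widest gaps in rank and length per direction, and a list of replication and silencing genes. The alleles compared, the members, lists and tests were chosen with earlier results of these data known. MAT was not analysed here.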

Additional observations from a re-analysis of the deposited data

How the results depend on the processing

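Of 95 values under other settings, 73 kept their direction or stayed within 1.5 times the reported count, 18 counts moved further and 4 differences turned. The 73 include the differences with the replicate number as a block and with the crossed pairing, which equal the reported difference by construction. For regions on chromosomes 1 to 7 the difference of means (orc1P179A minus orc1bah) of −15.5 was −14.5 at a −log10 q of at least 5. It turned to 0.50 at a −log10 q of at least 10. For kb near ends the 2.26 turned to −0.27 at a −log10 q of at least 5, and was 2.68 and 3.55 with windows of 10 and 40 kb. Leaving out 1 library at a time gave −21.5 to −9.50 regions on chromosomes 1 to 7, 276.5 to 422.5 on chromosome 8, −15.9 to 1.35 kb on chromosomes 1 to 7 (turned without orc1bah replicate 2) and −0.66 to 5.18 kb near ends (turned without orc1P179A replicate 1). Places of orc1bah alone on chromosomes 1 to 7, 8 in all, were 5 and 0 at thresholds of 5 and 10, 3 with the 223 strongest regions per list, and 9 to 29 with 1 library left out. Those of orc1P179A alone, 3 in all, were 0 at a threshold of 5, 5 with equal region numbers, 6 with summits within 200 bp, and 4 to 19 with 1 library left out. On chromosome 8 the 141 were 42 and 2 at thresholds of 5 and 10, 0 with the 23 strongest regions per list, and 142 to 422 with 1 library left out; places of orc1bah alone went from 0 to 1 with summits within 200 bp. Places in all 4 lists stayed at 171 to 198 on chromosomes 1 to 7 and at 18 to 22 on chromosome 8. Where a library is left out, fewer lists have to agree, which raises these counts by construction; other causes were not tested. Equal region numbers give no value for region counts themselves. Places were formed anew under each setting, so a count under another setting need not be of the same places.

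The replicate numbers do not pair the libraries by any label. Deviations of same-numbered libraries had a correlation of −0.14 over 192 places. With the replicate number as a block the difference in regions was −15.5 on chromosomes 1 to 7 and 349.5 on chromosome 8, as without it, since both fits average the same libraries, and likewise −7.29 and 2.26 kb. The crossed pairing, added after the data were seen, gave differences within pairs of 276 and 423 regions on chromosome 8 and of −18 and −13 on chromosomes 1 to 7. With 2 libraries per allele the exact permutation test cannot go below p = 0.333, so it could not detect a difference of any size. With 1 strain behind orc1bah and no read counts, small differences between the alleles could also go unseen in the values themselves.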

Other observations

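The 18 places of chromosomes 1 to 7 held by both alleles but not by all 4 lists were weak, with medians of 1.98 to 2.35 for the fold in the 4 lists. They lay near chromosome ends more often than the places in all 4 lists, with 8 of 18 within 20 kb of an end against 16 of 192. A wild-type list held 16 of them. Those between HOS1 and SPE3 on chromosome 3 and between SCY1 and GUP1 on chromosome 7 were in no wild-type list. The places of a single orc1bah list had their summit outside genes at 6 of 30 (20%), close to the 20.5% of bases of these chromosomes outside genes, whereas those of a single orc1P179A list did so at 12 of 21 (57.1%). Of these 21 places, 8 lay within 20 kb of an end, all from orc1P179A replicate 1, against 0 of the 30. Both wild-type lists held 13 of the 21 and 1 of the 30.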
